A study of Drosophila sechellia x Drosophila simulans with 8 samples.

Results

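Yp2 (listed as Dsim\Yp2, on the X chromosome) is a yolk protein gene, and its RNA level and its 2 species alleles were followed through every library of the series. It was found by its symbol and is 1 of the 14176 genes in the deposited gene table, in which all of its TPM values equal those of the single transcript FBtr0215953 (1540 bases). The animals were F1 hybrids between Drosophila sechellia and Drosophila simulans, aged 10 days, so every group carries autosomes of both species and none is a pure species. Females carry an X of each species, and males carry a single X. The 4 groups were oenocytes of females, oenocytes of males, fat body of females and fat body of males, each dissected from the dorsal abdomen and each with 2 libraries, which makes 8. The labels give neither the direction of the cross, nor the number of animals behind a library, nor whether the replicates came from separate animals, so the p-values below measure only the spread between these libraries, which may be technical.

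Yolk proteins are the main nutrient store that a Drosophila egg receives. In D. melanogaster they are made in the fat body and in the follicle cells of the ovary of adult females, are secreted into the blood and are taken up by the growing oocyte through a receptor. Their fat body transcription there is switched by the sex determination pathway, in which Sex-lethal acts on transformer and transformer on the doublesex splice form, and it responds to juvenile hormone, ecdysone and feeding. Oenocytes, the cells that make cuticular hydrocarbons, lie beside the fat body under the abdominal cuticle.

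In the female libraries Yp2 was the second most abundant gene of the table. Its level in female fat body was 88267 TPM in replicate 1 and 87132 TPM in replicate 2 (a level corrected for transcript length and library size), which is 8.83% and 8.71% of all TPM in those libraries. In female oenocytes it was 36350.8 TPM and 37412.7 TPM, or 3.64% and 3.74% of all TPM. The male fat body libraries had 54.62 TPM and 84.65 TPM, and the male oenocyte libraries 56.27 TPM and 67.21 TPM. The order was therefore female fat body, female oenocytes and then the males, with no overlap between the first, the second and the male libraries. The male groups overlapped: both male oenocyte values lay between those of the male fat body replicates. Because these are bulk samples, fewer cells of a type and less RNA per cell cannot be told apart.

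**Figure D1:**
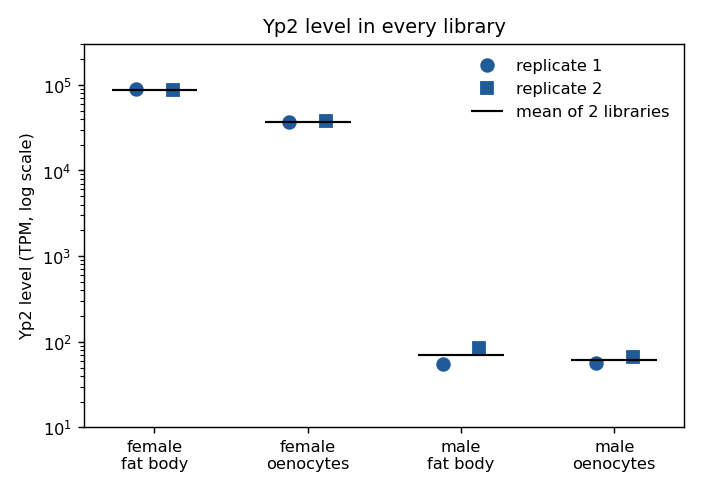
Level of Yp2 in TPM on a log axis for each of the 8 libraries, by group (circle, replicate 1; square, replicate 2; line, mean of the 2 libraries). The female fat body libraries sit at 88267 and 87132 TPM, the female oenocyte libraries at 36350.8 and 37412.7 TPM, and the 4 male libraries between 54.62 and 84.65 TPM.

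Yp2 was counted in every library of both sexes. Kallisto, a program that assigns reads to transcripts, gave it 913883 and 1260475 estimated counts in female oenocytes and 1480130 and 2273290 in female fat body. Male oenocytes had 792 and 1907, and male fat body 684 and 3004. The libraries held 10732070 to 34474092 estimated counts in total. Reads aligned to genes were fewer, with 2275755 to 4642417 per library and 160 to 233043 of them on Yp2. Over genes with a single transcript, the 2 male oenocyte libraries were close to sampling noise, with a chi-square of 1.08 per degree of freedom where the remaining groups had 2.94 to 5.55. Over all transcripts that value was 7.55, and over aligned reads 7.69. These libraries were summed and counted as 1 sample in the fits, which left 7 samples.

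Yp2 was far higher in females than in males of both tissues. In fat body the mean level was 87699.5 ± 803 TPM in females and 69.6 ± 21.2 TPM in males (SD, n = 2 each), a ratio of 1259, and the ratios between single female and male libraries ran from 1029 to 1616. On the estimated counts Yp2 was higher in females by 10.89 ± 0.41 on the log2 scale (SE), with a Benjamini-Hochberg adjusted p of 0.00155 in edgeR's quasi-likelihood test. Of the 14279 transcripts tested in that comparison, 6.13% were called at an adjusted p under 0.05. In oenocytes the means were 36881.8 ± 751 TPM in females and 61.7 ± 7.74 TPM in males, a ratio of 597 with single library ratios from 541 to 665. The log2 difference there was 9.13 ± 0.53 (edgeR adjusted p 0.00704), against 2.0% of transcripts called. In both tissues every female library lay above every male library.

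Between the tissues of females, Yp2 was lower in oenocytes. The ratio of fat body to oenocytes was 2.38 in TPM, with single library ratios from 2.33 to 2.43. In CPM (counts scaled to library size with edgeR's TMM factors) the means were 119803 ± 5037 in fat body and 41307 ± 1434 in oenocytes (SD, n = 2 each). The fitted difference, oenocytes minus fat body, was -1.54 ± 0.27 on the log2 scale (edgeR adjusted p 0.0152), in a comparison in which 26.0% of transcripts were called. The call was lost when any single female library was left out (edgeR adjusted p 0.0626 to 0.0792), while the value stayed between -1.58 and -1.50.

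In males the tissues were not told apart, and the order of their means depended on the measure. In TPM fat body had the higher mean (69.6 against 61.7), while in CPM oenocytes did. The mean was 73.6 CPM in the summed oenocyte sample and 63.0 ± 24.6 in fat body (SD, n = 2), a log2 difference of 0.22 ± 0.33 (edgeR adjusted p 0.732), where 21.4% of transcripts were called. That test rested on the wide spread of male fat body, whose replicates had 45.1 and 79.9 CPM when all 8 libraries were scaled apart. Leaving out male fat body replicate 2 gave a difference of 0.69 (edgeR adjusted p 0.0293), and leaving out replicate 1 gave -0.13 (edgeR adjusted p 0.559). Each of these fits has 1 sample in both male groups, which are assumed to vary like the female groups. An interaction term compared the female excess of oenocytes with that of fat body. It was -1.75 ± 0.42, smaller in oenocytes than in fat body, with an edgeR adjusted p of 0.149 (unadjusted 0.00958), where 2.59% of transcripts were called. It did pass with DESeq2 (-1.79, adjusted p 0.000167) and with limma on log2(TPM + 1) after a filter on low values (-1.11, adjusted p 0.0378).

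Yp2 was next set beside the other genes that are abundant in female fat body. There 147 genes, Yp2 included, had a mean of at least 1000 TPM. As these genes were chosen by their level in female fat body, which is also the base of the percentages, the percentages are a description only. In male fat body Yp2 was at 0.0794% of its female level, with only 2 of the 147 lower, which were the X-linked genes GD16970 and GD28649. Of the other 144 genes the lowest was at 4.96%, and the median over all 147 was 87.5%. In female oenocytes, by contrast, Yp2 was at 42.1% of its fat body level, where 40 of the 147 genes were lower, the lowest at 5.25% and the median at 65.7%. Yp2, GD16970 and GD28649 together made up 30.2% and 30.5% of all TPM in the female fat body libraries and 0.0162% to 0.0245% in the male libraries, which lowers the TPM of every other gene in female fat body.

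**Figure D2:**
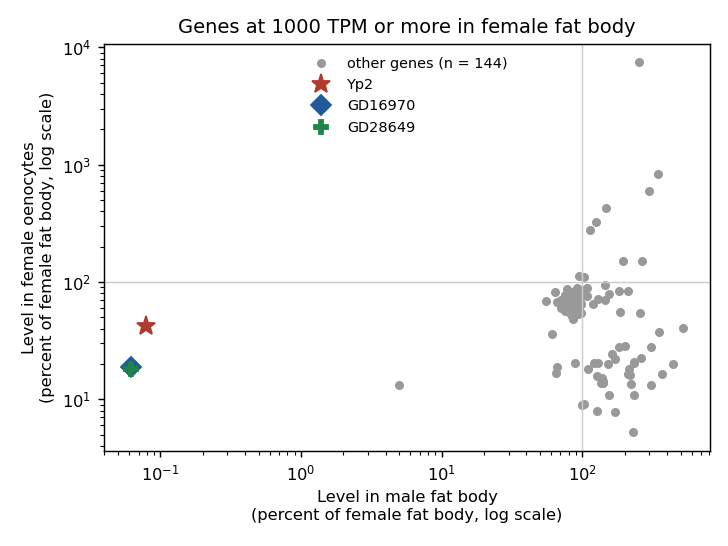
Level in male fat body (x) and in female oenocytes (y), each as a percent of the level in female fat body, on log axes, for the 147 genes at 1000 TPM or more in female fat body. Yp2 and the 2 genes with GD numbers stand at under 0.1% on the x axis, while all 3 lie among the other genes on the y axis, Yp2 at 42.1%.

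Known marker genes were compared between the tissues to describe the dissections. DesatF, a desaturase of the oenocytes that makes female cuticular hydrocarbons in D. melanogaster, had a mean of 2634 TPM in female oenocytes and 28 TPM in female fat body, which is 1.06% of the oenocyte level. Desat2, another desaturase, was at 1.33%. Desat1, the last of the 3 oenocyte markers in the files, went the other way, with 6445 TPM in female oenocytes and 9057 TPM in female fat body. In the other direction, the fat body gene Adh (alcohol dehydrogenase) had 6463 TPM in female fat body and 2632 TPM in female oenocytes, or 40.7%, and GNBP1, an immune recognition protein, was at 26.1%. Obp99a and Obp99b, which encode odorant-binding proteins and come from the list of female-enriched fat body genes, were at 13.3% and 57.0%. Of the 3 listed fat body markers in the files, Fbp2 was at 0 to 0.25 TPM, and the summed level of the 3 was 6394 to 6564 TPM in female fat body against 2541 to 2732 TPM in female oenocytes. Yp2, at 42.1%, lay between these values, close to Adh and below Obp99b, and the part of fat body RNA in the oenocyte level of Yp2 was not tested. In males the oenocyte level was 10.1% of the fat body level for Adh, 9.31% for GNBP1, 6.83% for Obp99a and 7.44% for Obp99b. For Yp2 it was 88.7%. The percentages thus differed between the sexes, and how much of each comes from the dissection was not tested.

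Few markers of other tissues carry a symbol in the files. Of 15 listed follicle cell and eggshell genes, the 2 found were Cp16 and dec-1, which were listed at 0 in all 8 libraries. Of 5 germ line genes, the 2 found, nos and bam, summed to at most 0.38 TPM in any library. The part of ovary RNA in the level of Yp2 was not tested. Of 9 listed genes of the male accessory gland and testis, the 6 in the files summed to at most 2.12 TPM. The muscle genes Mlc1, up and Act88F summed to 23.4 to 30.1 TPM in fat body and 6.03 to 10.2 TPM in oenocytes.

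The genes with the pattern most like that of Yp2 were ranked by Pearson's r of log2(TPM + 1) over the 8 libraries, among 6134 genes with a mean of at least 5 TPM in at least 1 group. The 10 highest had r from 0.924 to 0.996, values set largely by the gap between the sexes, and 6 of the 10 lie on the X, which holds 1031 of the 6134 genes ranked. GD16970 ranked first, with means of 139444 TPM in female fat body, 26282 TPM in female oenocytes, 86.7 TPM in male fat body and 76.6 TPM in male oenocytes. GD28649 ranked 3rd, with 76066, 13638, 47.3 and 50.8 TPM in the same order. The files pair these 2 numbers with no gene name, and they are named here because they exceed 50000 TPM in female fat body, a choice made after their values were seen. The only other gene of the 10 with a symbol was r (rudimentary, an enzyme of pyrimidine synthesis), with 7.53 TPM in female fat body, 7.67 TPM in female oenocytes, 3.79 TPM in male fat body and 3.58 TPM in male oenocytes.

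The order of the 3 abundant X-linked genes was not the same in the tissues of females. GD16970 stood at 1.56 and 1.62 times the Yp2 level in the female fat body libraries and at 0.691 and 0.734 times in female oenocytes. In the 4 male libraries it stood at 1.21 to 1.27 times, whichever the tissue. GD28649 was at 0.860 and 0.874 times Yp2 in female fat body, at 0.366 and 0.373 times in female oenocytes and at 0.631 to 0.828 times in males. Yp2 was thus second of the 3 in female fat body and first in female oenocytes. Both genes were chosen for their level in female fat body, so these ratios are a description, and a difference in proportion was not tested.

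**Figure D3:**
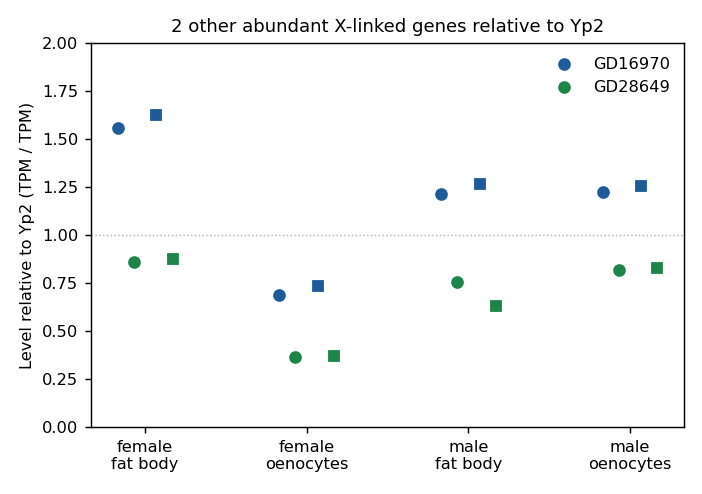
TPM of GD16970 and GD28649 divided by the TPM of Yp2 in each of the 8 libraries (circle, replicate 1; square, replicate 2; the dotted line marks equal levels). GD16970 lies above Yp2 in female fat body (1.56 and 1.62) and in the males (1.21 to 1.27) and below it in female oenocytes (0.691 and 0.734).

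Few genes of the yolk protein pathway carry a symbol in the files. Of the 134 symbols in 12 lists, 31 were found, and Yp2 was the only 1 found of the 11 symbols for yolk proteins, lipoproteins and their uptake. In the sex determination list 3 of 14 were found and 1 was tested. Sxl, the switch gene of the pathway, was higher in females in fat body (17.1 against 8.52 TPM, log2 difference 1.65, edgeR adjusted p 0.00483) and in oenocytes (33.6 against 5.41 TPM, 2.63, edgeR adjusted p 0.00739). Unlike Yp2, it was higher in oenocytes than in fat body of females, by 0.70 (edgeR adjusted p 0.0113). The gene tra, which Sxl controls by splicing, had 20.1 TPM in fat body and 20.4 TPM in oenocytes of females against 13.3 and 14.0 TPM in males, and matched no single transcript, so it was not tested.

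In the list for hormone and nutrient signalling 5 of 28 genes were found and 4 tested. For the sex difference in fat body 1 of the 4 rose in females and 1 fell, and in oenocytes none rose and 1 fell, beside 6.13% and 2.0% of all transcripts called. Jheh1, an enzyme that degrades juvenile hormone, was lower in females in fat body by a log2 value of -1.36 (edgeR adjusted p 0.00234) and in oenocytes by -0.97 (edgeR adjusted p 0.0133). Thor, an inhibitor of translation downstream of insulin, rose in female fat body by 0.69, close to the threshold (edgeR adjusted p 0.0488). Its TPM means differed less, with 2812 in female and 2496 in male fat body. Abd-B was the only gene found of 10 listed regulators of yolk protein genes and was at 0.20 TPM or less in every library. Of 11 genes listed as female-enriched in fat body, 3 were found and 2 tested: Obp99a was higher in females by 4.82 in fat body and 5.27 in oenocytes (edgeR adjusted p 0.000419 and 0.00208), and Obp99b was lower in female fat body by -3.22 (edgeR adjusted p 0.00263). Obp99a was the gene at 4.96% in male fat body named above as the lowest after the 3 X-linked genes.

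The hybrids also give the level of each species allele. Reads of the reference allele are taken here as D. simulans and reads of the alternative allele as D. sechellia, because across genes the reference percentage rose with the kallisto percentage for D. simulans (465 to 810 genes per library, which are not independent replicates; Pearson's r between 0.706 and 0.863). In female oenocytes replicate 1 had 9193 reference and 15360 alternative reads of Yp2, an alternative share of 62.6% (95% Wilson interval 62.0% to 63.2%). Replicate 2 had 8823 and 18130 reads, a share of 67.3% (66.7% to 67.8%). In female fat body replicate 1 had 34399 and 38566 reads, a share of 52.9% (52.5% to 53.2%), and replicate 2 had 20175 and 28777 reads, a share of 58.8% (58.3% to 59.2%). Both oenocyte libraries lay above both fat body libraries, and the replicates of each tissue differed by far more than their intervals, which cover counting error only. The authors' deposited log2 values for these libraries were 0.74 and 1.04 in oenocytes and 0.16 and 0.51 in fat body.

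The test of the allele counts gave a log2 ratio of alternative to reference of 0.89 ± 0.15 for oenocytes of females (edgeR adjusted p 0.000203), while their fat body gave 0.34 ± 0.15 (edgeR adjusted p 0.0975, or 0.0476 in a fit of the female libraries alone). Of 3599 genes tested, 32.2% were called in oenocytes and 26.5% in fat body, most of them towards the alternative allele (1074 of 1158 and 874 of 955), and the median log2 ratio of all tested genes was 0.72 and 0.67. Against that median, with each sample centred on it, the Yp2 ratio was 0.17 in oenocytes (edgeR adjusted p 0.419) and turned to -0.33 in fat body (edgeR adjusted p 0.104). Among X-linked genes with at least 20 reads, the median share was 59.6% and 61.0% in the oenocyte libraries and 58.9% and 58.6% in the fat body libraries. In oenocytes 40.9% and 36.2% of these genes were at or above Yp2, and in fat body 65.3% and 49.3%. For the kallisto copies, transcripts with nearly equal estimated counts of both copies were left out of the X-linked background. This raises the medians and percentages that follow. In oenocytes 66.7% and 67.5% of the transcripts kept were at or above Yp2, with medians of 66.4% and 67.3%. In fat body 85.4% and 85.1% were at or above it, with medians of 66.6% and 65.4%. Over the summed counts of X-linked transcripts, Yp2 included, the D. sechellia copy took 52.3% and 52.1% in oenocytes and 56.1% and 56.7% in fat body. The Yp2 percentage lay above that in oenocytes (60.7% and 59.9%) and below it in fat body (50.8% and 51.2%).

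**Figure D4:**
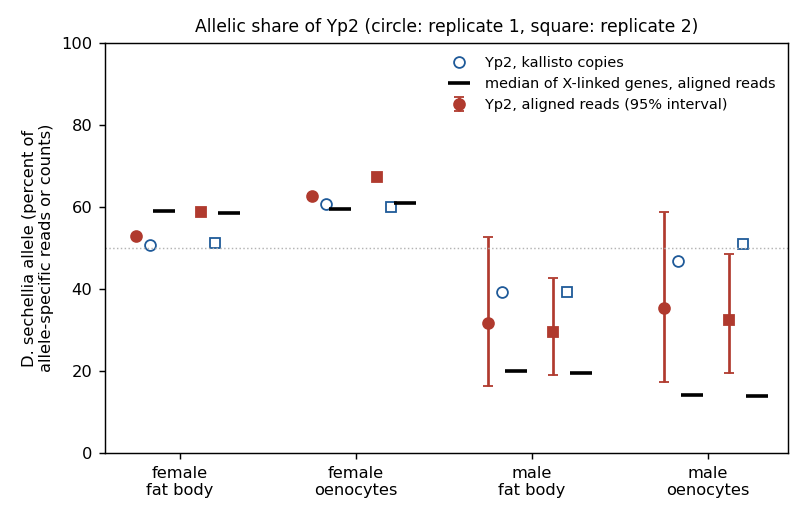
Percent of D. sechellia allele for Yp2 in each of the 8 libraries from aligned reads (filled, with 95% Wilson intervals) and from the kallisto copies (open), with the median of X-linked genes from aligned reads as a bar (circle, replicate 1; square, replicate 2; the dotted line marks 50%). Female oenocytes lie at 62.6% and 67.3% and female fat body at 52.9% and 58.8%, while the male libraries lie at 29.6% to 35.3%, above their X medians of 13.9% to 20%.

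The allelic ratio of Yp2 was higher in oenocytes than in fat body of females by 0.55 ± 0.21 on the log2 scale, which did not pass the threshold (edgeR adjusted p 0.840, unadjusted 0.0165), in a comparison in which 0.167% of genes were called. The species copies in kallisto gave nearly the same size with replicates closer together. There the D. sechellia copy took 60.7% and 59.9% of the estimated counts in oenocytes and 50.8% and 51.2% in fat body. The log2 ratio of the copies was 0.60 in oenocytes (edgeR adjusted p 0.00236) and 0.057 in fat body (edgeR adjusted p 0.107), both smaller than from aligned reads, with a difference of 0.55 ± 0.020 (edgeR adjusted p 0.124 over the transcripts tested that way). As levels, the D. simulans copy had 50155 and 48894 TPM in fat body and 15455 and 16119 TPM in oenocytes, a ratio of means of 3.14. The D. sechellia copy had 51710 and 51358 TPM in fat body and 23838 and 24103 TPM in oenocytes, a ratio of 2.15. These levels come from the kallisto tables per library, in which the copies sum to more than the level in the gene table. The copies and the aligned reads come from the same libraries. In males, which carry a single X, the D. sechellia copy took 46.7% and 51.0% of Yp2 counts in oenocytes. It took 39.3% in each male fat body library. How well kallisto tells the copies of Yp2 apart was not tested.

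**Figure D5:**
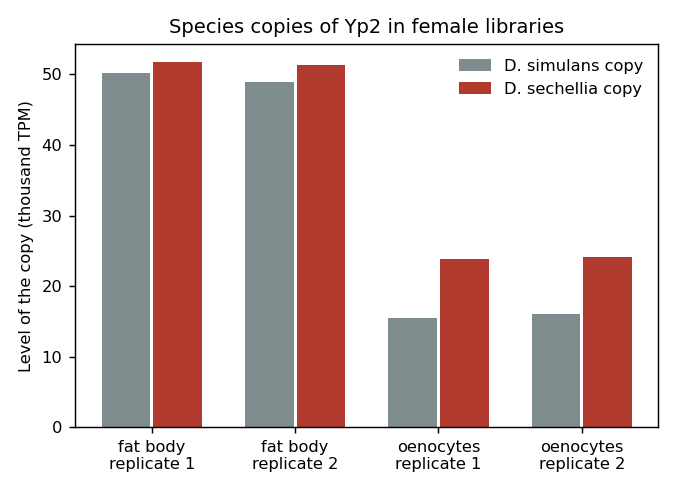
TPM of the D. simulans and D. sechellia copies of Yp2 in the 4 female libraries, on an axis in units of 1000 TPM. The copies are nearly level in fat body (48894 to 51710 TPM) and apart in oenocytes, where the D. simulans copy is at 15455 and 16119 TPM and the D. sechellia copy at 23838 and 24103 TPM.

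The fat body replicates also differed in the percentage of reads that carry an allele. In female fat body replicate 1, 31.3% of the aligned Yp2 reads were specific for an allele, against 21.2% to 22.8% in the other 3 female libraries. The oenocyte replicates, at 21.2% and 22.8%, differed in alternative share as well, with 62.6% and 67.3%. Reads with conflicting alleles made up 0.768% to 1.70% of Yp2 reads in females. Whether the percentage of allele-specific reads bears on the allelic shares was not tested.

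The allelic shares of the other abundant X-linked genes stood in a different order, which was not tested against Yp2. GD16970 was the only X-linked gene with at least as many allele-specific reads as Yp2 in both female tissues. Its alternative share was 40.3% and 40.2% in female oenocytes and 48.6% and 56.9% in female fat body, so its oenocyte libraries lay below its fat body libraries, the reverse of Yp2. Its log2 ratio was -0.57 ± 0.16 in oenocytes (edgeR adjusted p 0.01) and 0.16 ± 0.16 in fat body (edgeR adjusted p 0.488), and the difference between the tissues was -0.73 ± 0.22 (edgeR adjusted p 0.470). GD28649 had 58.6% and 58.2% in oenocytes and 58.8% and 58.1% in fat body, with a log2 ratio of 0.49 in each tissue (edgeR adjusted p 0.0244 and 0.0273) and a tissue difference of -0.0038 ± 0.22 (edgeR adjusted p 1).

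Males carry a single X, from which at most 1 allele of Yp2 can be transcribed. Reads of both alleles were counted in males all the same, and their source was not tested. Most allele-specific X-linked reads of males were of the reference allele, taken here as D. simulans. The alternative share of male autosomes was 62.6% to 65.6%. On the X as a whole the alternative share was 17.6% and 17.9% in the male oenocyte libraries and 24.6% and 22.1% in male fat body. For Yp2 it was 35.3% (6 of 17 reads, 95% Wilson interval 17.3% to 58.7%) and 32.4% (12 of 37, 19.6% to 48.5%) in male oenocytes. In male fat body it was 31.8% (7 of 22, 16.4% to 52.7%) and 29.6% (16 of 54, 19.1% to 42.8%). All 4 values lay above the share of the X as a whole in the same library and below every female value, though the intervals of 3 of the 4 libraries reach down to the X share. The kallisto copies put the D. sechellia percentage of Yp2 at 46.7% and 51.0% in the oenocyte libraries of males and at 39.3% in each of their fat body libraries. The medians over X-linked transcripts were 16.7% to 22.8%, with transcripts of nearly equal estimated counts of both copies left out. Over the summed counts of X-linked transcripts, Yp2 included, the D. sechellia copy took 14.0% in each male oenocyte library. In male fat body it took 35.7% and 34.6%.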

How the data were processed

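RNA of hybrid females and males was sequenced from fat body and from oenocytes, with 2 libraries per group. The authors deposited, for each library, kallisto estimated counts per transcript with a D. simulans and a D. sechellia copy, TPM values for transcripts and genes, and counts of aligned reads per gene split into reference, alternative, conflicting and no allele, with a log2 allelic value, per the file headers. The submitters' processing notes name kallisto 0.44.0 and STAR 2.5.1b, and the genome build is not given in the sources used here. Yp2 and all gene lists were chosen with earlier results of these data known.

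Here the copies were summed per transcript, rounded and fitted with edgeR 4.0.16 in R 4.3.3 (TMM, filterByExpr, quasi-likelihood test, 1 term per group, Benjamini-Hochberg adjustment over all transcripts, threshold 0.05). The male oenocyte libraries entered as their sum, 7 samples in all, under a rule of chi-square per degree of freedom under 1.5 over genes with a single transcript. Allele counts were fitted with a term per sample and an allele term per group, where a gene had 20 or more allele-specific reads in each group (for the X, in each female group). Library totals of allele-specific reads were 563434 to 1155753. Alternatives used DESeq2 1.42.0, limma 3.58.1 on log2(TPM + 1) and log2(TPM + 0.1), aligned reads and left-out libraries. Transcripts were tied to genes by equal TPM in all 8 libraries (7776 matched), and genes tied to no single transcript were not tested. Genes named were Yp2, the listed genes and the 10 most alike in pattern, apart from those with a GD number, of which only GD16970 and GD28649 are named. The fits were also run on data simulated with known differences. The spread in those simulations was taken from the fit or fixed in advance, so they do not bear on the calls reported. Intervals cover counting error only.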

Additional observations from a re-analysis of the deposited data

Results flagged for a closer look

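Reads of the alternative allele of Yp2 were present in males, which the comparisons between female tissues do not use. There were 41 such reads among 130 allele-specific reads in the 4 male libraries, or 31.5% (95% Wilson interval 24.2% to 40.0%), with 18 of 54 in oenocytes and 23 of 76 in fat body. On the X as a whole the alternative share was 17.6% to 24.6% in these libraries. In the same libraries GD16970 had 29.5% to 47.6% (44 to 126 allele-specific reads) and GD28649 had 43.5% to 78.8% (33 to 113). A male share above that of the X as a whole was therefore not particular to Yp2. Of X-linked genes with at least 20 reads, 14.3% to 32.1% had an alternative share at or above that of Yp2 in the same male library.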

How the results depend on the processing

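Yp2 stayed higher in females under all 19 alternatives in fat body (10.14 to 11.36 on the log2 scale) and in oenocytes (8.29 to 9.33). It was called in both tissues under every alternative that left no library out. The oenocyte difference lay close to the threshold when a female fat body library was left out. The tissue difference in females ranged from -1.58 to -1.50 with a library left out and was called under every alternative that left none out (-1.67 to -1.25). That in males ranged from -0.13 to 0.69 with a library left out and from -0.14 to 0.43 with none left out. The interaction passed the threshold with DESeq2 (-1.79, adjusted p 0.000167), with limma on filtered log2(TPM + 1) (-1.11, adjusted p 0.0378) and with the replicate block (-1.72, adjusted p 0.0414). With a library left out it was -2.23 to -1.41 and not called. The allelic ratio in oenocytes was 0.17 when centred (adjusted p 0.419) and 0.74 to 1.04 with a library left out. In fat body it was called with the replicate block (0.34, adjusted p 0.0303) and in the female libraries alone (0.34, adjusted p 0.0476), was -0.33 when centred and 0.057 with the kallisto copies (0.60 in oenocytes), and was 0.16 to 0.51 with a library left out. The tissue difference of the allelic ratio was called under none of 15 alternatives (0.38 to 0.72). The cause of these changes was not tested. Replicate numbers did not pair the samples: deviations of same-numbered samples correlated at -0.023 to 0.12. Counts called are of transcripts, or of genes where TPM or aligned reads were fitted. With no library left out they ranged from 81 to 5318 for sex in fat body (875 as reported) and 25 to 1351 for sex in oenocytes (286). They were 2136 to 5328 for tissue in females (3713), 1637 to 5153 for tissue in males (3060) and 6 to 3312 for the interaction (370). The number tested for sex in fat body ranged from 7415 genes with aligned reads to 18017 transcripts without a filter, against 14279 as reported. With limma on log2(TPM + 1), which is not rescaled, the median over 11622 genes for sex in fat body was -0.40. Of these genes 279 were higher and 4809 lower in females, against 406 and 469 of 14279 transcripts as reported. With 2 libraries or fewer per group, 1 library can decide a call.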
